A study of Bos taurus with 25 samples.

Results

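Livers of dairy cows given vitamin B12 alone were compared directly with livers of cows given vitamin B9 (folic acid) alone, with no saline array in the comparison. The arrays were chosen by tissue and treatment in the sample titles, which gave 7 of the 25 arrays of the series, 4 for B12 (cows 36, 37, 40 and 52) and 3 for B9 (cows 39, 41 and 57). All were multiparous Holstein cows that received 5 mL of their treatment by intramuscular injection every week from before calving, 10 mg of cyanocobalamin in the B12 group and 320 mg of pteroylmonoglutamic acid in the B9 group. Liver biopsies were taken 64 ± 3 days after calving. Each array held RNA of 1 cow, so that the error of every value is the spread between cows.

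Both vitamins serve 1 step of metabolism. Methionine synthase (MTR) uses a form of vitamin B12 as cofactor and a form of folate as methyl donor to make methionine from homocysteine. The other enzyme that uses vitamin B12, methylmalonyl-CoA mutase (MMUT), brings propionate, the main precursor of glucose in ruminants, into the citric acid cycle in liver. Interferons are cytokines of the antiviral response that switch on a broad set of genes, among them IFI6, IFI27, ISG15 and MX1. Metallothioneins are small cysteine-rich proteins that bind zinc and copper, and the liver makes acute-phase proteins when inflammatory cytokines reach it.

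The 7 arrays carried liver RNA: the mean level of 20 hepatocyte markers lay between 16.95 and 17.12 on the log2 scale in every array. Between 73.5% and 82.7% of the probes were well above background, and signal over background ranged from 3.23 in cow 37 to 8.27 in cow 36. Each array lay on a slide of its own, and cow 37 alone was scanned on the second scan day, so results without this cow are results within 1 scan day. The array of cow 57 (B9) stood apart, with a median correlation of 0.972 with the other arrays against 0.990 to 0.992 for the others.

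Across 27841 genes, no gene passed limma's threshold, an adjusted p of at most 0.05 with a difference of at least 2-fold (0% of the genes, smallest adjusted p = 0.380). An unadjusted p below 0.05 was found for 1506 of 43653 probes (3.45%, where chance gives 5%), and 44 of these also differed by at least 2-fold (0.101%). With Cyber-T, a test that takes the spread of each probe partly from probes of similar brightness, 9 genes passed (0.0323%). IFI6 and IFI27 were higher with B12, and ITIH4, MT1A, LOC613358, LOC768319, MGC157368 and the transcripts ENSBTAT00000049072 and ENSBTAT00000046462 were lower. For the gene counts that follow each gene is represented by its brightest probe. On that basis 504 genes were higher with B12 at an unadjusted limma p below 0.05 (1.81%) and 408 were lower (1.47%). The level was higher in all 4 B12 cows than in all 3 B9 cows for 773 genes (2.78%) and lower for 720 (2.59%). A difference of at least 2-fold was found for 54 genes higher with B12 (0.194%) and 46 lower (0.165%). Without cow 57, 26 of these 54 and 30 of these 46 remained beyond 2-fold. Including genes that newly passed 2-fold, the count was 52 higher and 56 lower without cow 57, 191 and 82 without cow 39, and 256 and 235 without cow 41. In the plot of all genes, which shows brightest probes, the largest difference of either sign was that of IFI6.

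**Figure D1:**
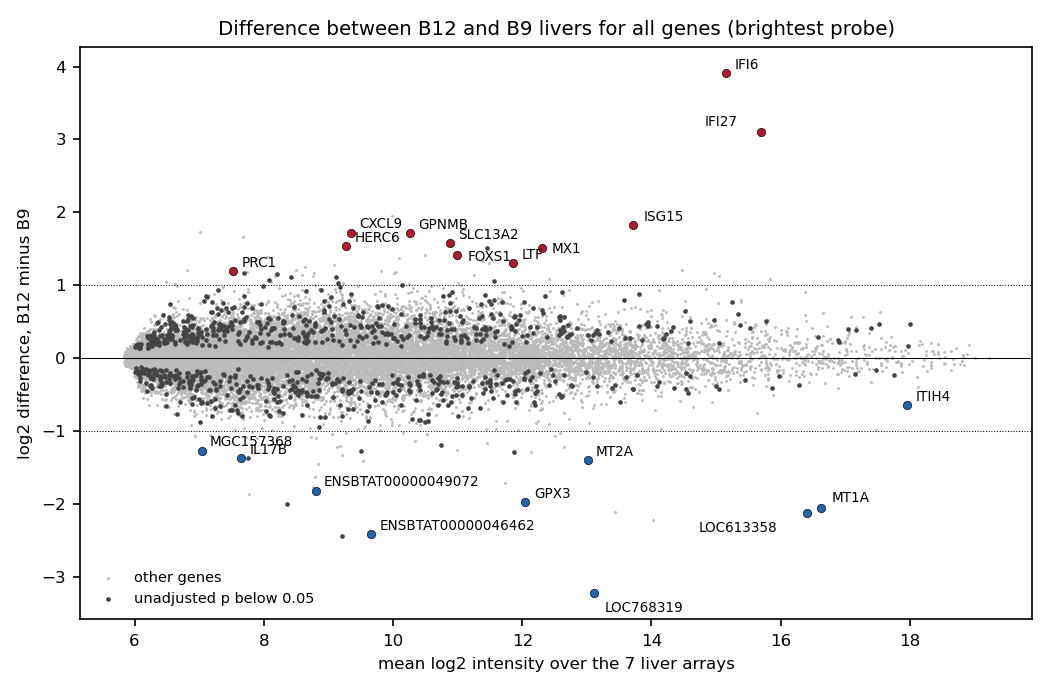
Log2 difference, B12 minus B9, of each of 27841 genes (vertical axis) against its mean log2 intensity over the 7 liver arrays (horizontal axis), with dark points for an unadjusted limma p below 0.05 and dotted lines at 2-fold. IFI6 (3.91) and IFI27 (3.10) lie above all other genes, of which the next is ISG12(B) at 1.95, and LOC768319 (-3.23), a metallothionein gene, lies lowest.

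IFI6, an interferon-induced protein of mitochondria, had the largest difference between the groups when each gene was read by its brightest probe. Its log2 intensity was 17.46, 16.21, 16.88 and 16.77 in B12 cows 36, 37, 40 and 52, and 12.63, 12.73 and 13.40 in B9 cows 39, 41 and 57. The groups did not overlap, and the gap between them was larger than the range within either. The means were 16.83 ± 0.52 (SD, n = 4) and 12.92 ± 0.42 (SD, n = 3), a difference of 3.91 with a standard error of 0.32, or 15.0-fold. Limma gave an adjusted p of 0.380 for this gene over all probes and Cyber-T gave 1.71e-08. The exact permutation test over the 7 arrays, two-sided, gave p = 0.0286, the smallest value that 4 arrays against 3 can give. Leaving out each cow in turn gave differences between 3.70 and 4.15. When all 12 liver arrays were normalized together, the 3 saline cows lay between 12.98 and 13.36 and the 2 cows given both vitamins between 12.83 and 13.70. The levels of the B9 cows thus lay near those of the saline cows, and only the cows given B12 alone were high.

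IFI27, another small interferon-induced membrane protein, differed in the same way on all 3 of its probes. The brightest probe read 17.44, 16.51, 17.09 and 17.05 in the B12 cows and 12.76, 13.80 and 15.20 in the B9 cows. The B12 cows were close to each other, whereas the B9 cows spanned more than 2 log2 units with cow 57 the highest. The difference was 3.10 with a standard error of 0.55, an 8.59-fold difference (limma adjusted p = 0.855, Cyber-T adjusted p = 0.000186, exact permutation p = 0.0286, two-sided). Its other probes gave differences of 3.24 and 4.12. Without cow 57 the difference of the brightest probe was 3.74. Saline cows lay between 13.59 and 14.63 in the joint normalization. The study's quantitative PCR did not bear out a rise of IFI27 with B12 over saline. Its paralogue ISG12(B), chosen after its values were seen, read 13.69 in cow 36 but 9.96, 9.81 and 9.83 in the other B12 cows, and 8.51, 8.22 and 9.87 in the B9 cows. For this paralogue the difference was 1.95, and 1.00 without cow 36.

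Of 55 listed interferon-stimulated genes, 34 were found on the array. Their differences were positive for 30 and negative for 4, with a median of 0.36 against 9.23e-05 over all genes. Of the 34, 5 had an unadjusted p below 0.05 and a higher level with B12 (1.81% of all genes), and none a lower level (1.47%). Without cow 37 this count was 3 and the median 0.22, and without cow 57 they were 5 and 0.40. A difference of at least 2-fold was found for 9 members, all higher with B12, as for 0.194% of all genes. The levels were apart and higher with B12 for 3 members, IFI6, IFI27 and HERC6, as for 2.78% of all genes. In HERC6, a ubiquitin ligase of the ISG15 system, the B12 cows read 10.31, 10.88, 8.87 and 9.65 and the B9 cows 8.50, 8.18 and 8.51 (difference 1.53, standard error 0.45). XAF1, which promotes apoptosis, was higher by 0.77, and IFIT5, an RNA-binding antiviral protein chosen after its values were seen, by 0.74, both with groups that overlapped. Without cow 57 IFIT5 was higher by 0.48.

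Classical members of the response, such as ISG15 and MX1, did not separate the groups. ISG15, a ubiquitin-like modifier, read 15.87, 15.36, 12.90 and 13.89 in the B12 cows and 11.97, 11.51 and 14.55 in the B9 cows. MX1, a GTPase that blocks viruses, read 13.96, 14.09, 10.71 and 13.03 against 11.25, 10.14 and 12.93. Both genes were high in B12 cows 36 and 37, and in both B9 cow 57 lay above B12 cow 40. The differences of 1.83 for ISG15 and 1.51 for MX1 had standard errors of 0.98 and 1.00, and exact permutation tests gave p = 0.171 and p = 0.229, two-sided. The differences depended on single cows: they were 2.77 and 2.25 without cow 57, 2.36 and 2.25 without cow 40, 1.54 and 1.12 without cow 37, and 1.25 and 0.86 without cow 41. RSAD2, an antiviral enzyme also called viperin, was higher by 1.27, the guanylate-binding protein GBP4 by 1.21 and RTP4 by 1.08, all with groups that overlapped. The value of GBP4 was 0.77 without cow 57. OAS1X, an RNA sensor that was well above background on only 3 of 4 B12 and 1 of 3 B9 arrays, was high in cows 36 (10.22) and 37 (11.04) and at 6.37 and 5.95 in cows 40 and 52, while B9 cow 41 read 8.43. ISG15, MX1, RSAD2, GBP4, RTP4 and OAS1X were chosen after their values were seen. The mean level of the 34 genes was 11.29, 11.26, 10.19 and 10.66 in the B12 cows and 9.96, 10.06 and 10.46 in the B9 cows, so that the groups overlapped for the list though not for IFI6 and IFI27.

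Transcripts of milk proteins, which are markers of another tissue, also varied between the liver arrays, in an order like that of ISG15 for the highest cows only. The mean level of 11 of 13 listed mammary epithelium genes was 10.46, 10.18, 9.26 and 8.35 in the B12 cows and 8.78, 8.83 and 9.76 in the B9 cows. All 11 were well above background on all 7 arrays. The casein gene CSN1S1 read 11.72, 11.34, 9.44 and 7.01 against 8.30, 8.26 and 10.09. Cows 36, 37 and 57, the 3 highest for ISG15, were also the 3 highest for CSN1S1. In MX1 and RSAD2 cow 52 lay above cow 57. In cow 52, which had the lowest CSN1S1 of all 7 arrays, IFI6 read 16.77 and IFI27 17.05, within the range of the other B12 cows. The part of these transcripts in the difference of the interferon genes was not tested.

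**Figure D2:**
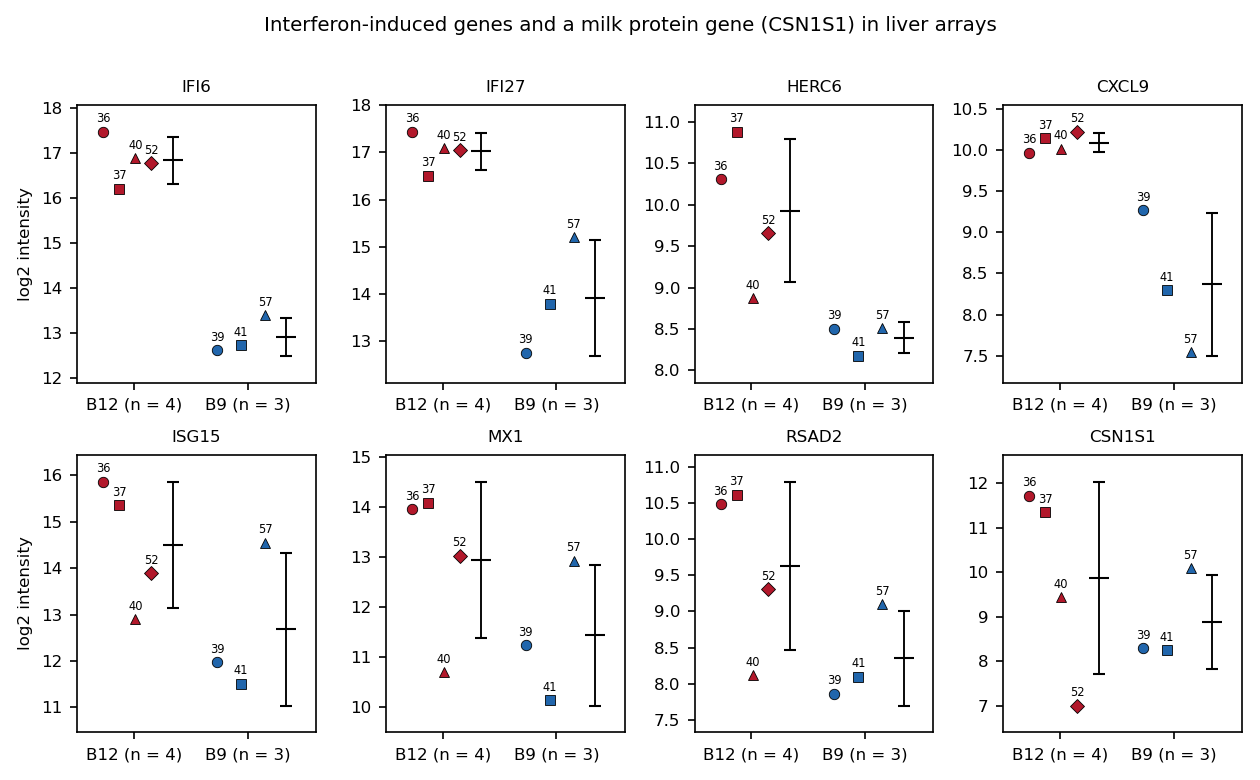
Log2 intensity (vertical axis) of 7 interferon-induced genes and of the milk protein gene CSN1S1 in liver, 1 point per cow with its number, B12 cows in red and B9 cows in blue, and bars for mean ± SD. IFI6 and IFI27 separate the groups, whereas ISG15, MX1, RSAD2 and CSN1S1 overlap, with B9 cow 57 above B12 cow 40 in each.

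The chemokine CXCL9, which draws T cells and is induced by interferon gamma, followed IFI6 and IFI27 among the genes that the rule for named genes selected. It read 9.97, 10.15, 10.02 and 10.22 in the B12 cows and 9.27, 8.29 and 7.54 in the B9 cows (difference 1.72, standard error 0.37). With Cyber-T it missed the threshold at an adjusted p of 0.0568. The B12 cows were nearly alike, and the spread lay in the B9 group. Antigen presentation genes differed less. Of 17 listed, 14 were found, 11 were higher with B12, and the median difference was 0.19. An unadjusted p below 0.05 was found for 2, both higher, where 1.81% of all genes were higher at this p. When arrays were scaled to their 75th percentile in place of quantiles, the median was 0.07 and the count 0 higher and 1 lower. BOLA-DRA, a chain of MHC class II, was higher by 0.46 and B2M, the light chain of MHC class I, by 0.38, both with groups that did not overlap. Without cow 57 B2M was higher by 0.22. With the processed signal scaled to the 75th percentile the differences were 0.21 for BOLA-DRA and 0.11 for B2M. PSMB8, of the immunoproteasome, was higher by 0.45 and TAP2, of the peptide transporter, lower by 0.48, both with overlap. The 19 T and NK cell markers found had a median difference of 0.02, and none had an unadjusted p below 0.05.

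Of the metallothionein genes, 3 had lower levels in all B12 cows than in all B9 cows, as did 2.59% of all genes. MT1A read 16.07, 16.78, 15.48 and 14.61 in the B12 cows and 17.07, 17.61 and 18.70 in the B9 cows. All B9 cows lay above all B12 cows. The difference was -2.06 with a standard error of 0.59, a 4.16-fold lower level with B12 (limma adjusted p = 0.855, Cyber-T adjusted p = 0.0294). Another pair of metallothionein genes, LOC613358 and LOC768319, both listed with the synonym MT1E and chosen after their values were seen, went the same way. LOC613358 read 15.41, 16.86, 14.94 and 14.76 against 17.53, 17.30 and 18.03, a difference of -2.13 (Cyber-T adjusted p = 0.00682). LOC768319 read 11.67, 12.94, 11.42 and 10.87 against 15.59, 13.43 and 15.82, a difference of -3.23 (Cyber-T adjusted p = 0.00194). The groups did not overlap in either gene, and the cows kept nearly the same order in all 3, with cow 37 the highest of the B12 group and cow 57 the highest of the B9 group.

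MT2A followed less clearly, at 11.66, 13.54, 13.01 and 11.43 in the B12 cows and 12.45, 13.56 and 15.41 in the B9 cows, a difference of -1.40 with overlap. Without cow 57 it was -0.60, while that of MT1A was -1.60. MT3 differed by -0.34, by -0.14 without cow 57 and by -0.53 without cow 39. In the joint normalization the saline cows lay between 17.02 and 17.81 for MT1A and between 16.84 and 17.41 for LOC613358, near the B9 cows. The cows given both vitamins lay between 13.24 and 15.33 for MT1A. Metallothionein genes are closely alike in sequence, and how far these probes read each other's transcripts was not measured. The other genes of metal handling differed less. Of 10 members of that list found, MT1A alone had an unadjusted p below 0.05, and the median difference was -0.07. The list held the zinc transporter genes SLC39A14 (0.07) and SLC39A4 (-0.06), the ferritin genes FTH1 (0.06) and FTL (-0.09), named here after their values were seen, and the metal-sensing transcription factor MTF1 (-0.23).

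Acute-phase genes were mostly lower with B12, by amounts that varied between cows. Of 22 listed genes 18 were found, 13 lower and 5 higher, with a median of -0.11, which was -0.23 without cow 37. An unadjusted p below 0.05 was found for 2, both lower, where 1.47% of all genes were lower at this p. Without cow 57 this was 1 lower, and without cow 37 it was 2 higher and 1 lower. ITIH4, an acute-phase glycoprotein of plasma, read 17.51, 17.83, 17.78 and 17.61 in the B12 cows and 18.52, 18.18 and 18.29 in the B9 cows, with no overlap (difference -0.65, standard error 0.12). Its dimmer probe gave -1.47 (Cyber-T adjusted p = 0.0294). CRP, the C-reactive protein, differed by -0.36, but 1 of its 4 probes gave 0.16. Haptoglobin (HP), which binds free haemoglobin and was chosen after its values were seen, read 17.80, 17.90, 17.46 and 15.05 against 18.36, 17.20 and 18.56, and its low B12 value came from cow 52 alone. The serum amyloid gene SAA4 differed by -0.97, A2M by -0.87 and LBP, which binds bacterial lipopolysaccharide, by -0.75, all with groups that overlapped. Without cow 57 SAA4 differed by -0.37, without cow 39 A2M by -0.24, and without cow 52 LBP by -0.31 and HP by -0.32. A2M and LBP were chosen after their values were seen.

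**Figure D3:**
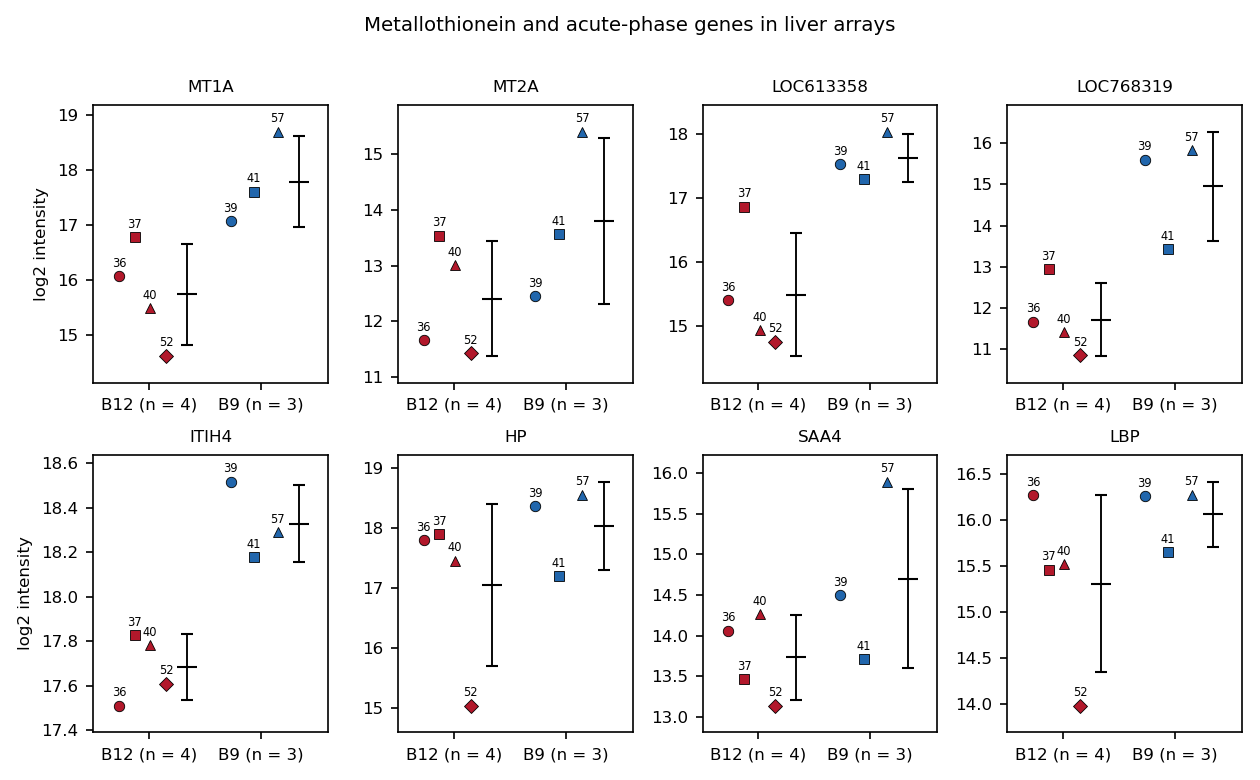
Log2 intensity (vertical axis) of 4 metallothionein genes and 4 acute-phase genes in liver, 1 point per cow with its number, B12 cows in red and B9 cows in blue, and bars for mean ± SD. MT1A, LOC613358, LOC768319 and ITIH4 separate the groups, while MT2A, HP, SAA4 and LBP overlap.

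The enzymes and carriers of both vitamins differed little. Of 22 listed genes of the folate cycle 18 were found, none had an unadjusted p below 0.05, and the median difference was 0.05. MTR read 7.63, 7.31, 7.75 and 7.56 in the B12 cows and 7.44, 7.57 and 7.44 in the B9 cows, a difference of 0.08 with a standard error of 0.11. MTRR, which reactivates methionine synthase, differed by -0.08, and SHMT1, which moves carbon units from serine, by 0.09. FPGS, which retains folate in cells, differed by -0.17. With each cow left out, MTRR ranged from -0.21 to 0.03, SHMT1 from -0.13 to 0.21 and FPGS from -0.33 to 0.05. Of 8 genes of folate uptake and retention 5 were found, again with none below 0.05. The largest differences in these lists were those of GLDC, the glycine decarboxylase of mitochondria, at 0.70, and the folate transporter SLC46A1 at -0.68, both with groups that overlapped. Without cow 57 they were 0.38 and -0.41, and without cow 41 they were 1.01 and -1.03.

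In the methionine cycle and transsulfuration 15 of 21 listed genes were found, 11 of them lower with B12, and the median was -0.06. CBS, which commits homocysteine to cysteine synthesis, read 11.57, 10.98, 11.32 and 11.07 against 11.57, 11.75 and 11.67, with overlap through cow 36 (difference -0.43, standard error 0.15). SUOX, the sulfite oxidase, was lower by 0.18 with no overlap. MAT1A, which makes S-adenosylmethionine in liver, differed by -0.34 and BHMT, which remethylates homocysteine with betaine, by 0.11. With each cow left out, BHMT ranged from -0.12 to 0.44. Of the vitamin B12 carriers and cofactor enzymes, 12 of 17 were found. MMAA, which protects the cofactor on methylmalonyl-CoA mutase, read 11.88, 11.87, 12.01 and 11.96 in the B12 cows and 11.68, 11.72 and 11.73 in the B9 cows. This was a small difference of 0.22 with no overlap (standard error 0.06). MMUT itself differed by -0.15, TCN2, which carries the vitamin in plasma, by -0.13 and its receptor CD320 by -0.23 (standard errors 0.23, 0.21 and 0.13). With each cow left out, MMUT ranged from -0.34 to 0.01 and TCN2 from -0.35 to 0.04, while CD320 lay between -0.31 and -0.14. None of 18 genes of propionate use and gluconeogenesis had an unadjusted p below 0.05, and their median was 0.01. PCK1, the key enzyme of gluconeogenesis, differed by -0.00 with a standard error of 0.36 and PC, pyruvate carboxylase, by -0.27, which was 0.24 without cow 57.

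Most cell cycle genes had a higher mean with B12, by small amounts. Of 23 listed 19 were found, 17 of them higher, with a median of 0.28. Of these, 2 were higher with B12 at an unadjusted p below 0.05, as were 1.81% of all genes. The count was 5 when cow 37 was left out, 1 when cow 57 was, and 0 under the 75th percentile. RRM1, a subunit of ribonucleotide reductase, read 12.78, 12.71, 12.73 and 13.04 against 12.48, 12.45 and 12.23 (difference 0.42, standard error 0.11). The mitotic cyclin genes CCNB1 and CCNB2 were higher by 0.53 and 0.63 with groups just apart. They were high in cows 36 and 40 and near the B9 cows in cow 52. The same cows were high in PRC1, a protein of the mitotic spindle, at 8.80, 7.40, 8.81 and 7.12 against 7.11, 6.80 and 6.60, and in STMN1, which destabilises microtubules, at 11.18, 9.89, 11.30 and 9.89 against 9.73, 9.52 and 9.46. The differences were 1.19 for PRC1 and 1.00 for STMN1. The other 2 probes of PRC1 were not well above background on every array.

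Among 17 of 22 genes found of the amino acid stress response, 3 had an unadjusted p below 0.05, all higher with B12 and with groups apart. Over all genes, 1.81% were higher at this p, and 2.78% were apart and higher. TRIB3, a pseudokinase induced by the factor ATF4, read 11.27, 11.80, 11.86 and 11.78 against 10.54, 11.13 and 11.14 (difference 0.74, standard error 0.21). The brightest probes of the transcription factor genes ATF3 and DDIT3 gave 0.55 and 0.69. Of the 3 probes of TRIB3, the lowest gave -0.08. Without cow 57 the count was 1 higher, and without cow 37 it was 2 higher and 1 lower. ATF3 differed by 0.35 without cow 40 and DDIT3 by 0.38 without cow 57. The list median of 0.11 was 0.21 without cow 57 and -0.04 when arrays were scaled to their 75th percentile, which moved the median of all probes by -0.19. In the same normalization the median of the interferon-stimulated genes was 0.31, that of the cell cycle genes 0.26 and that of the acute-phase genes -0.34. Heat shock genes had a median of 0.19, which became 0.02, and -0.01 with the processed signal.

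**Figure D4:**
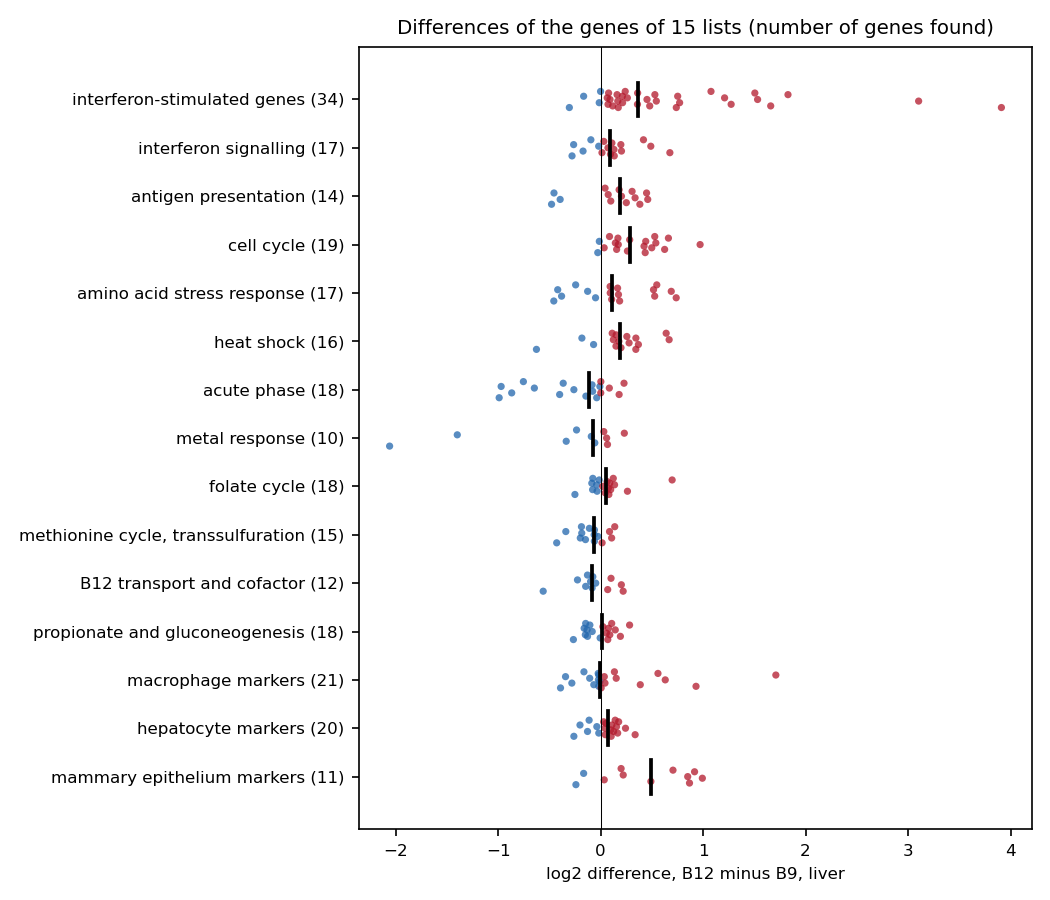
Log2 difference, B12 minus B9, in liver (horizontal axis) of the genes of 15 lists, 1 point per gene, red above 0 and blue below, with a black bar at the list's median. Interferon-stimulated genes lie mostly above 0 with a median of 0.36, and the vitamin and gluconeogenesis lists lie close around 0.

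The rule for named genes selected 12 genes higher and 12 lower with B12, none of which passed limma's threshold. SLC13A2, a carrier of dicarboxylates and citrate, read 11.37, 12.18, 10.95 and 11.72 with B12 and 9.69, 10.42 and 9.82 with B9 (difference 1.58, standard error 0.32). The forkhead factor FOXS1 read 12.18, 12.07, 10.99 and 11.13 against 10.15, 10.37 and 10.02, a difference of 1.42. LTF, lactoferrin, which binds iron and is found in neutrophil granules and milk, read 13.37, 11.89, 12.48 and 11.93 against 10.49, 11.36 and 11.47, a difference of 1.31. It was the only one of 12 neutrophil markers found with an unadjusted p below 0.05, and their median was -0.06. TMEM156 (1.11), SYCP3 (0.97), a protein of meiotic chromosomes, and PCNP (0.91) were the remaining higher genes. In TMEM156, PCNP and SYCP3 cow 57 had a low level, at 6.74, 9.80 and 7.90, and without this cow the differences were 0.59, 0.61 and 0.61.

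After MT1A, the selected genes with the lowest differences were IL17B and MGC157368. IL17B, a cytokine of the interleukin 17 family, read 7.38, 6.76, 7.37 and 6.74 with B12 and 8.25, 9.66 and 7.41 with B9, a difference of -1.38, which was -0.77 without cow 41. MGC157368 read 6.53, 6.48, 6.43 and 6.54 against 7.69, 7.46 and 8.14 (difference -1.27, Cyber-T adjusted p = 0.0294). Its other probe was not well above background on any array. PINK1, a kinase that marks damaged mitochondria, was lower by 0.77 on its brightest probe and differed by -0.15 and -0.29 on the others. MAP2K6, which activates p38 kinase, was lower by 0.88, the chloride channel CLCN2 by 0.83 and SULT1E1, the oestrogen sulfotransferase, by 0.71. VSTM2A (-0.88), WDR54 (-0.73), CIBAR1 (-0.72), SERGEF (-0.69) and IFT20 (-0.65), of the cilium transport machinery, were the remaining lower genes. Without cow 57 the differences of MAP2K6 (-0.43), VSTM2A (-0.41), SERGEF (-0.39) and IFT20 (-0.38) were each nearer to 0.

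Of the transcripts without a gene symbol, both chosen after their values were seen, ENSBTAT00000046462 read 8.90, 8.50, 8.59 and 8.52 with B12 and 11.23, 10.38 and 11.54 with B9. This difference of -2.42 had a standard error of 0.27 and a Cyber-T adjusted p of 0.000186. Saline cows lay between 8.64 and 10.57 in the joint normalization. ENSBTAT00000049072 read 7.51, 8.59, 7.41 and 8.57 against 9.44, 10.08 and 9.99, a difference of -1.82.

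Some genes with a large mean difference did not separate the groups. GPNMB, a glycoprotein of lipid-laden macrophages, read 11.98, 10.50, 10.83 and 10.67 in the B12 cows and 8.13, 8.45 and 11.28 in the B9 cows. Its difference was 1.71 with a standard error of 0.80, and 2.71 with a standard error of 0.42 without cow 57. It was 1.13 without cow 39 and 1.29 without cow 41. The macrophage markers, GPNMB included, were mixed, with 10 of 21 higher and a median of -0.01. SPP1 (0.56), LGALS3 (0.93) and MSR1 (0.39), also linked to activated macrophages, had an unadjusted p below 0.05, though SPP1 was well above background on only 2 of 3 B9 arrays, whereas CD68 differed by 0.01 and CSF1R by -0.02. Without cow 57 the difference of MSR1 was 0.25. SPP1 is also made by bile duct cells, and of 8 of 11 bile duct markers found 6 were higher, with a median of 0.36. At an unadjusted p below 0.05 were 2, both higher and SPP1 among them, where 1.81% of all genes were higher at this p. The mean level of these 8 genes was 8.91, 8.67, 8.38 and 8.60 in the B12 cows and 8.33, 8.33 and 8.46 in the B9 cows, with overlap, and their part in the difference of SPP1 was not tested. In bulk tissue more cells of a type and more RNA per cell cannot be told apart. GPX3, the plasma glutathione peroxidase, differed by -1.98, with cow 52 at 8.27 in the B12 group and cow 57 at 15.25 in the B9 group. Without cow 57 it was -0.95, and without cow 52 it was also nearer to 0. SFRP1, an inhibitor of Wnt signalling, differed by -1.08, by -1.77 without cow 57 and by -0.71 without cow 39. DLK1 (-0.03), MYOM1 (0.08) and G0S2 (0.28), which the study names for liver, differed by less than their standard errors on their brightest probes. The study compared each vitamin with saline, and lists DLK1 and MYOM1 as lower with either vitamin alone. The other probes of DLK1 ranged from -0.21 to 0.64. Without cow 57 DLK1 differed by 0.24 and G0S2 by 0.78, and without cow 41 G0S2 differed by -0.26. MYOM1 differed by 0.59 without cow 36 and by -0.59 without cow 40. The endothelial markers CDH5 (-0.40) and ESAM (-0.30) and the basement membrane collagen COL4A1 (-0.33) were lower with groups apart. Without cow 57 the values were -0.30, -0.15 and -0.21. Of the 10 endothelial markers found, 7 were lower and 3 higher, with a median of -0.12, and at an unadjusted p below 0.05 were CDH5, lower, and FCN1, higher by 0.50. JUN, an immediate early gene, was higher by 0.59 and HSP90AA1, a chaperone, by 0.64, both with overlap.

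Mammary gland biopsies of the same 7 cows allowed the comparison to be set beside another tissue. No gene passed limma there (0%), 1 passed Cyber-T (0.00359%), and 848 had an unadjusted p below 0.05 (3.05%). The groups were apart there for 668 genes higher with B12 (2.4%) and 483 lower (1.73%). Of the 912 genes with an unadjusted p below 0.05 in liver (3.28%), 57 also had one in the gland, 47 of them in the same direction and 30 with groups apart in both tissues. The single gene that passed Cyber-T in the gland was ENSBTAT00000046462, which read 6.16, 6.12, 5.96 and 6.09 in the B12 cows and 7.41, 8.31 and 8.14 in the B9 cows. Its difference was -1.87 in the gland and -2.42 in liver, although on 1 B12 array of the gland it was not well above background.

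IFI6 read 10.50, 11.45, 10.31 and 11.13 in the glands of the B12 cows and 9.67, 10.28 and 9.64 in those of the B9 cows. The groups were just apart, and the difference of 0.98, with a standard error of 0.31, was smaller than in liver. IFI27 read 11.90, 12.08, 11.45 and 11.56 against 10.95, 11.21 and 10.59, a difference of 0.83 with a standard error of 0.20. FOXS1 was higher by 0.58 with no overlap. MT1A differed by -0.45 with overlap and LOC768319 by -0.04. CSN1S1 differed by -0.01 in the gland. For the test of tissue by treatment the 14 arrays of both tissues were normalized together. On that scale the liver difference exceeded that of the gland by 3.01 for IFI6, with a standard error of 0.52, and by 2.42 for IFI27, with a standard error of 0.62. Neither passed after adjustment (limma adjusted p = 0.987 for both), and no gene did (0%, smallest adjusted p = 0.0950). With the cow as a replicate block the differences were the same and the adjusted p was 1 for both.

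**Figure D5:**
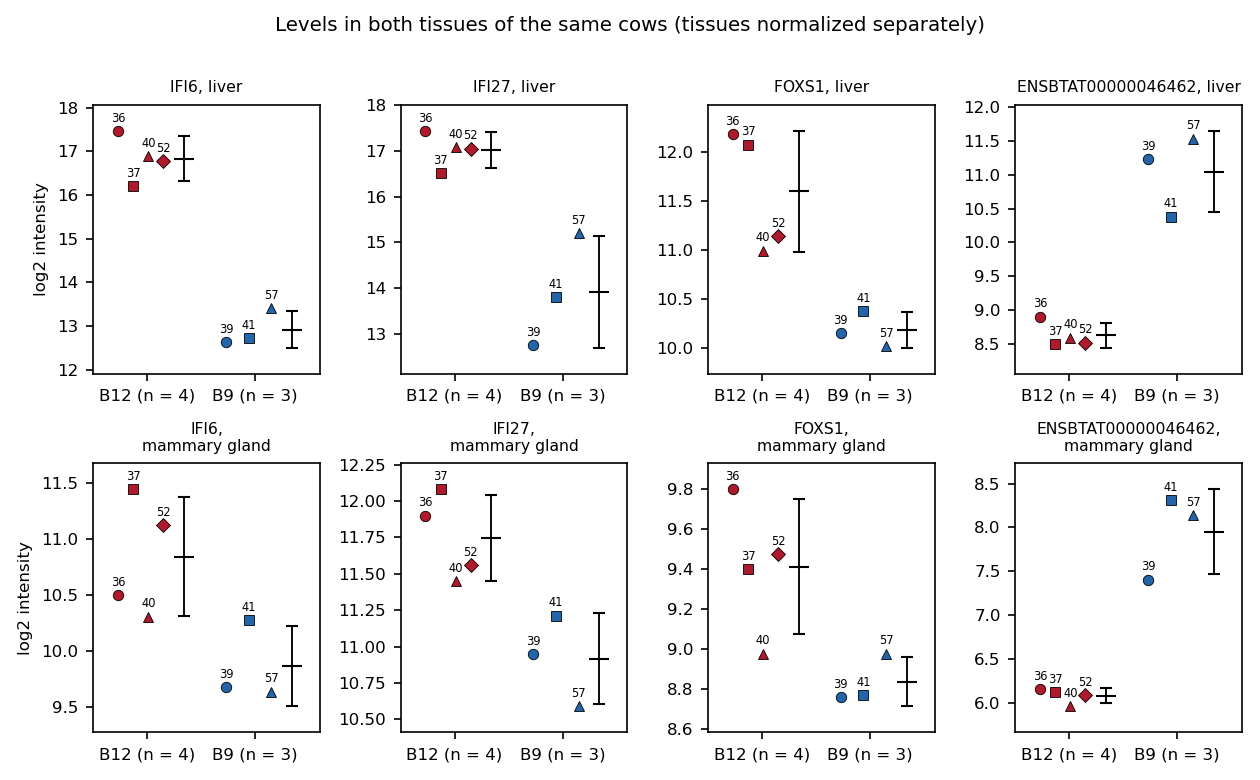
Log2 intensity (vertical axis) of IFI6, IFI27, FOXS1 and the transcript ENSBTAT00000046462 in liver (upper row) and mammary gland (lower row) of the same cows, 1 point per cow with its number, B12 in red and B9 in blue, and bars for mean ± SD. The groups are apart in the same direction in both tissues, which were normalized separately, and the difference of IFI6 is 3.91 in liver and 0.98 in the gland.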

How the data were processed

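Total RNA of liver biopsies was labelled with Cy3 and hybridised to 1-colour Agilent bovine 4x44K arrays. The deposited scanner files, made by the authors with Agilent Feature Extraction (version 10.7.3.1 per the file headers), hold raw median pixel intensity values for spots and for the background around them. The authors' deposited table holds log2 values after normexp background correction and between-array normalization in FlexArray. It differed from normexp with offset 16 and quantiles by a median of 0.0021 on the log2 scale, and was used as an alternative. The authors compared treatments with saline by Cyber-T and measured some genes again by quantitative PCR. With B12 against saline, that method gave lower MT1A, HP and DLK1 and higher G0S2 in liver. It did not bear out an effect of B12 on IFI27, HERC6, ISG15 and SFRP1.

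Here, median intensities were corrected by normexp (offset 50) and quantile-normalized over the 7 arrays in log2. Outlier spots were left out and spots of a probe averaged (43653 probes). The groups were compared with the limma package (version 3.58.1) under R version 4.3.3, with Benjamini-Hochberg adjustment over all probes, and 4 interferon genes by exact permutation tests over the 35 assignments, two-sided. Cyber-T used a window of 101 probes and a confidence of 10. A gene passed where any probe differed at least 2-fold at an adjusted p of 0.05 or less, and gene counts otherwise rest on the probe of highest mean. Of 27886 array names, 11113 were paired with a current symbol through RefSeq accessions. The reference belongs to another genome build, so no position is given. Interferon and other lists were described by counts and medians.

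The other 5 liver arrays entered only the joint normalization of 12 and the alternatives fitted on it, the gland arrays of the same cows were normalized apart, and the other 6 gland arrays were not used here. Genes were named by rule: IFI6 and IFI27, the 12 largest differences of each sign among genes with a symbol other than a LOC number, an unadjusted p below 0.05, groups apart and a signal well above background in the higher group, up to 4 members of each list by p, fixed vitamin genes, and genes the study names for liver. The comparison, members and lists were chosen with earlier results of these data known. Alternatives changed the background correction, the scaling, the filter on dim probes, the test, the arrays in the fit, the slide or scan day, and left out each cow. Liver and gland samples were paired by the cow number in their titles. Their deviations from the group means correlated between -0.25 and 0.06, and no liver array matched the gland array of its own cow best. The number of arrays limits the precision. Scripts were tested on simulated data. Some genes are not reported here.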

Additional observations from a re-analysis of the deposited data

Results flagged for a closer look

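In 4 of the 95 genes examined, 1 cow of the B12 group lay far from the other 3. Chance alone gives about 1 in 20 such cases. ISG12(B) read 13.69 in cow 36, against 9.96 in the next cow. HP read 15.05 in cow 52, against 17.46 in the next. TRIB3 read 11.27 in cow 36, against 11.78 in the next. PSPH, which makes serine, read 9.88 in cow 40, against 9.29 in the next.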

How the results depend on the processing

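The liver count of 0 genes became 1 (IFI6) when all 12 liver arrays were fitted, with or without the slide as a random block, with normexp offset 0, and with the 75th percentile in place of quantiles, and it became 9 with Cyber-T. In these settings IFI6 differed by 3.93, 3.93, 3.92, 3.67 and 3.91 (adjusted p from 1.71e-08 to 0.0231). IFI27 passed under Cyber-T alone (3.10). Under the remaining alternatives, including the scan day as a fixed block, which was chosen after seeing the data (IFI6 3.96, adjusted p = 0.053), the count stayed 0. Leaving out each cow gave 0 in every case, with probes at an unadjusted p below 0.05 from 1024 to 3699, IFI6 from 3.70 to 4.15 (adjusted p from 0.254 to 0.939) and IFI27 from 2.52 to 3.74. In the gland 1 gene passed by Cyber-T, and leaving out each cow gave 0 to 1: ENSBTAT00000046462 without cow 39 and ENSBTAT00000004012 without cow 41. The tissue by treatment test gave 0 with the cow as a replicate block, and 0 to 2 with each cow left out, where XM_593367 and ENSBTAT00000013397 passed without cow 57. The cause of these changes was not tested. Of the 95 genes recomputed under the alternatives, none that differed by more than its standard error changed direction. Sizes moved more: over the alternatives that kept all cows MGC157368 ranged from -2.51 to -0.68, VSTM2A from -1.66 to -0.42, PRC1 from 0.50 to 1.73, SPP1 from 0.40 to 2.02, CCNB1 from 0.35 to 1.66, CCNB2 from 0.42 to 1.55, SUOX from -0.40 to -0.17, RRM1 from 0.20 to 0.47 and MMAA from 0.12 to 0.24. For MGC157368, VSTM2A, PRC1 and CCNB2 the end nearest 0 is the mean of all probes, which by construction takes in probes that were not well above background on every array. With the mean of all probes CLCN2 (-0.50), PINK1 (-0.41) and WDR54 (-0.46) were nearer to 0. Scaling to the 75th percentile moved the median of all probes by -0.19, or by -0.05 with the processed signal, and with it the list medians of the folate cycle (-0.08), propionate use (-0.25), amino acid stress (-0.04), interferon signalling (-0.00), lipogenesis (-0.06) and hepatocyte markers (-0.17) changed sign. Medians of lists near 0 also changed sign when single cows were left out. With 4 cows against 3, the smallest permutation p is 0.0286.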

Other observations

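Genes of cholesterol and fatty acid synthesis, named here after their values were seen, depended on B9 cow 57. The mean level of 17 cholesterol synthesis genes was 12.17, 13.13, 13.18 and 13.66 in the livers of B12 cows 36, 37, 40 and 52, and 13.02, 13.93 and 11.63 in those of B9 cows 39, 41 and 57. Cow 57 was the lowest of the 7 and cow 41 the highest. The list's median difference was 0.21, and -0.44 without cow 57. For 14 lipogenesis genes the mean level was 10.40, 10.65, 11.20 and 11.30 against 10.84, 11.61 and 9.76, with the same cows at both ends. Their median difference was 0.04, and -0.34 without cow 57. No member of either list had an unadjusted limma p below 0.05.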
